A study of Mus musculus with 6 samples.

Results

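The RNA levels of 9 genes for transcription factors of beta cells and other islet endocrine cells (Pdx1, Nkx6-1, Nkx2-2, Neurod1, Isl1, Pax6, Foxa2, Rfx6 and Insm1) were examined in mouse pancreatic islets, small clusters of hormone-producing cells. The members are all probe sets that the platform annotation assigns to these symbols alone: 16 of 45101 probe sets, covering 8 of the 9 genes, with 1 probe set each for Nkx6-1, Nkx2-2 and Foxa2, 2 each for Pdx1, Neurod1, Isl1 and Insm1, and 5 for Pax6. Rfx6 is not analysed here. All islets came from wild-type male offspring of the outbred OF-1 stock, 30 days after birth, and no group was a transgenic model. The mothers had received vehicle, 10 µg/kg/day of bisphenol-A (BPA10) or 100 µg/kg/day (BPA100) from day 9 to day 16 of gestation. Bisphenol-A is a plastics monomer with estrogen-like activity. Each group had 2 arrays. RNA was pooled unevenly: 5 mice on vehicle replicate 1, 2 mice on BPA10 replicate 2 and 1 mouse on each of the other 4 arrays. The question of the series is how exposure in the womb affects beta-cell growth in early life.

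Islet endocrine cells are made and kept by a small network of DNA-binding proteins, many of which act on each other's genes as well as on hormone genes. Pdx1, Nkx6-1, Nkx2-2, Isl1 and Pax6 carry a homeodomain, which in many such proteins binds DNA around the letters TAAT. Neurod1 is a basic helix-loop-helix protein that binds E-boxes, Foxa2 a forkhead protein that can bind closed chromatin, Rfx6 a winged-helix protein and Insm1 a zinc-finger protein of endocrine differentiation. In beta cells Pdx1, Neurod1, Isl1 and Pax6 act on the insulin genes, and Nkx6-1 helps to keep alpha-cell genes off.

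The genes Pdx1, Neurod1 and Isl1 are shown by their DNA just before the transcription start. They were taken because the brightest probe set of each lay above both vehicle arrays on both BPA10 arrays (values below). RefSeq also places a start at the outer end of each gene. That order held for 17.5% of all tested probe sets, and the dimmer probe sets of these 3 genes did not share it. Insm1 and Nkx2-2 had it too by their brightest probe sets. No window was available for Insm1, and none at the outer end of the gene for Nkx2-2. The windows are 250 bases long, 5′ to 3′ on the strand of the gene, from RefSeq on build GRCm38.p6; capitals mark E-boxes (CANNTG) and TAAT on either strand, and the build enters none of the array values. They are chr5:147269847-147270096 (plus strand) for Pdx1, chr2:79456637-79456886 (minus strand) for Neurod1 and chr13:116309689-116309938 (minus strand) for Isl1.
Pdx1: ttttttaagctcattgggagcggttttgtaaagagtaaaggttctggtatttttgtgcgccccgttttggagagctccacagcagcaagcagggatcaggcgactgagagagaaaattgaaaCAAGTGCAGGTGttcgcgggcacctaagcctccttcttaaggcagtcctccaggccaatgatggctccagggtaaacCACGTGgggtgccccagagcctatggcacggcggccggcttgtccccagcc
Neurod1: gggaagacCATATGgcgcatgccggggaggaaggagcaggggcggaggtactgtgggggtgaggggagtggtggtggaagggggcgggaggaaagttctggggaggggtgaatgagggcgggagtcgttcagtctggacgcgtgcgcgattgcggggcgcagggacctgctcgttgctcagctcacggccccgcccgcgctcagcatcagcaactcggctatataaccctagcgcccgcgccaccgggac
Isl1: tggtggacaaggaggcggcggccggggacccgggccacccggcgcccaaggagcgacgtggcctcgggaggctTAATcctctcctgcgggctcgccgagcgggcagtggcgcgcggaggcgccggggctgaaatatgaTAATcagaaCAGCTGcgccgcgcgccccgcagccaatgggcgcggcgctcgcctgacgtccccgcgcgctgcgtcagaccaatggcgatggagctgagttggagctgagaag
The Pdx1 window held 3 E-boxes (spelled CAAGTG for the first, then CAGGTG directly after it, and CACGTG nearer the start) and no TAAT. The Neurod1 window held 1 E-box, CATATG, and no TAAT, and the Isl1 window held 1 E-box, CAGCTG, and 2 TAAT matches. Of 32851 such windows in RefSeq, 66.2% hold an E-box and 54.9% hold TAAT on either strand. The forkhead letters TGTTTAC, found in 3.17% of windows on either strand, and TATAAA, in 12.4%, were in none of these 3. A match describes the letters only.

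All 16 probe sets passed the filter on dim probe sets, a mean log2(signal + 1) at or above the 40th percentile, which 27022 probe sets of 13193 genes passed. The median signal of an array was 33 to 40, and the correlation over tested probe sets was 0.968 within each group, against 0.945 to 0.975 over all pairs of arrays. Between arrays of the same group, levels of the 8 genes by their brightest probe sets were 0.02 to 0.52 apart on the log2 scale. Levels of different probe sets cannot be set against each other, because each has its own probes. As these are whole islets, fewer cells of a type and less RNA per cell cannot be told apart. The labels do not say which mice share a litter, so the p-values cover the spread between these arrays alone. Differences are given in log2(signal + 1) with the moderated standard error (SE), and a fold is the same difference on a linear scale; p-values are from limma over all tested probe sets with Benjamini-Hochberg adjustment, and a probe set passes at an adjusted p under 0.05.

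Pdx1, the homeodomain factor that starts pancreas development and later activates the insulin gene, had the highest signals of its brighter probe set in islets of BPA10 offspring. That probe set (1422174_at) measured 1006 and 1121 on the vehicle arrays, 1346 and 1401 on the BPA10 arrays and 1077 and 956 on the BPA100 arrays. Both BPA10 arrays lay above all 4 other arrays, and the BPA100 arrays overlapped the vehicle arrays. BPA10 islets averaged 1374 ± 38.9, against 1064 ± 81.3 in vehicle islets (SD, n = 2 each), a difference of 0.37 ± 0.13 (SE) or 1.29-fold (95% interval 1.05 to 1.58), which did not pass (adjusted p = 0.663). It ranked 774th by p among the 27022 probe sets. The difference between BPA100 and vehicle was -0.07 ± 0.13 (0.956-fold, 0.780 to 1.17, adjusted p = 1), and that between BPA100 and BPA10 was -0.44 ± 0.13 (0.739-fold, 0.603 to 0.906, adjusted p = 0.964), 195th by p.

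The dimmer probe set of Pdx1 (1422173_at) did not share that order. It measured 78 and 102 on the vehicle arrays, 106 and 95 on the BPA10 arrays and 114 and 85 on the BPA100 arrays. The 3 groups overlapped, and its vehicle and BPA100 replicates were 0.38 and 0.42 apart on the log2 scale. It differed by 0.17 ± 0.24 between BPA10 and vehicle and by 0.14 ± 0.24 between BPA100 and vehicle (adjusted p = 0.914 and 1). The signals of the pair correlated at 0.46 over the 6 arrays, given as a description. With the acinar marker level as a covariate (below), the difference of the brighter probe set between BPA10 and vehicle was 0.38. That fit cannot fully tell the acinar level apart from BPA10 exposure. The difference lay between 0.29 and 0.45 with any 1 array left out. It was 0.26 with only arrays of 1 mouse, which leaves 1 BPA10 and 1 vehicle array.

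**Figure D1:**
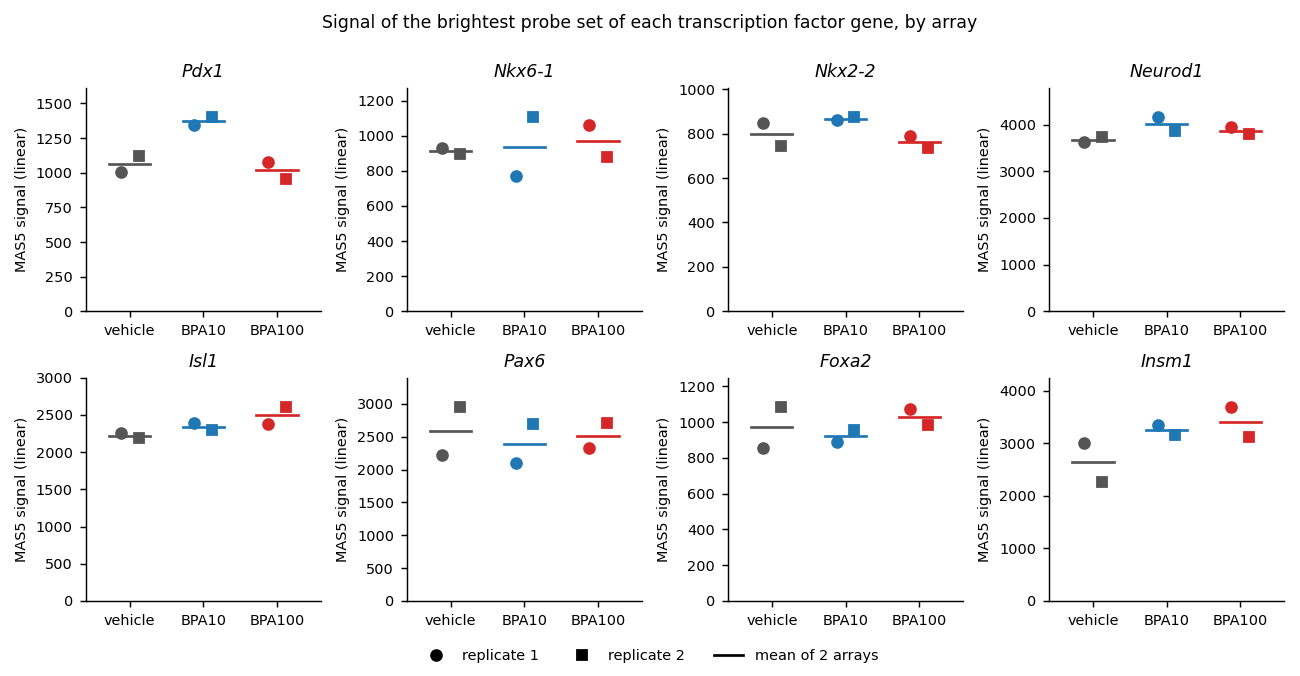
MAS5 signal on a linear scale from 0 for the brightest probe set of each gene, in vehicle, BPA10 and BPA100 islets; circles and squares are replicates 1 and 2 and lines the mean of 2 arrays. Pdx1 is at 1346 and 1401 on the BPA10 arrays, above all 4 other arrays, and Insm1 is lowest on vehicle replicate 2, at 2260.

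Insm1, a zinc-finger repressor needed for endocrine cells to differentiate, was the other gene with an unadjusted p under 0.05, and it did not pass either. Its brighter probe set (1455865_at) measured 3008 and 2260 on the vehicle arrays, 3340 and 3147 on the BPA10 arrays and 3690 and 3116 on the BPA100 arrays. All 4 arrays of exposed offspring lay above both vehicle arrays, whose own values were 0.41 apart on the log2 scale, the widest gap of its 3 groups. The difference was 0.38 ± 0.16 between BPA100 and vehicle (1.30-fold, 1.01 to 1.68, adjusted p = 1), 0.31 ± 0.16 between BPA10 and vehicle (1.24-fold, 0.963 to 1.61, adjusted p = 0.746), and 0.35 ± 0.14 between both doses and vehicle (1.27-fold, 1.02 to 1.59, adjusted p = 0.843).

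Its second probe set (1421399_at) measured 1942 and 1856 on the vehicle arrays, 1929 and 2384 on the BPA10 arrays and 2443 and 2328 on the BPA100 arrays. The BPA100 arrays again lay above both vehicle arrays, while BPA10 replicate 1 lay between them. It differed by 0.33 ± 0.13 between BPA100 and vehicle (1.26-fold, 1.01 to 1.56, adjusted p = 1), by 0.18 ± 0.13 between BPA10 and vehicle (adjusted p = 0.833), and by 0.25 ± 0.12 between both doses and vehicle (adjusted p = 0.880). In BPA100 islets both Insm1 probe sets had an unadjusted p under 0.05, and neither passed.

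A single vehicle array bears on the brighter Insm1 value. Without vehicle replicate 2 the differences were 0.17 for BPA100 and 0.11 for BPA10, and without vehicle replicate 1 they were 0.59 and 0.52, while the second probe set was at 0.30 or 0.36 and at 0.14 or 0.21. The BPA10 value of the second probe set, 0.18, was 0.02 without BPA10 replicate 2 and 0.33 without BPA10 replicate 1. It was 0.06 with only arrays of 1 mouse, which leaves 1 BPA10 and 1 vehicle array. Acinar-cell genes also stood lowest on vehicle replicate 2 (below). With their level as a covariate the brighter probe set differed by 0.23 in BPA100 and -0.03 in BPA10 islets, and the second by 0.31 and 0.14. Neither BPA100 difference had an unadjusted p under 0.05 by limma in this fit (0.109 and 0.0717). The acinar level was itself higher on both BPA10 arrays than on both vehicle arrays, so the fit cannot fully tell it apart from BPA10 exposure. Acinar markers were also higher in BPA100 islets (median 0.50), though the BPA100 and vehicle arrays overlapped. The fit therefore only partly tells their level apart from BPA100 exposure. The part of acinar RNA in the Insm1 values was not tested.

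**Figure D2:**
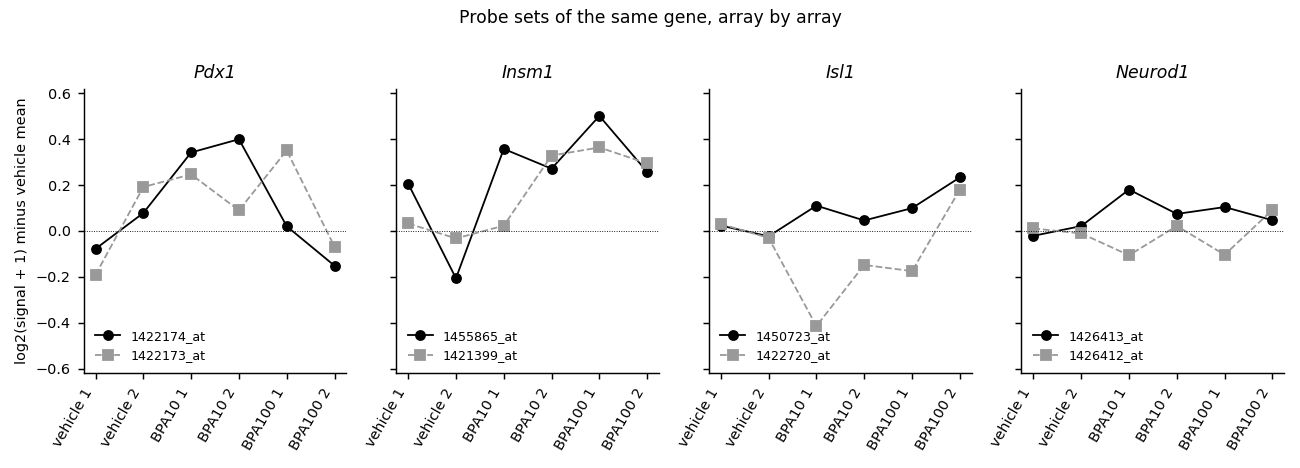
Level of each probe set of Pdx1, Insm1, Isl1 and Neurod1 on the 6 arrays, as log2(signal + 1) minus the mean of the 2 vehicle arrays (black, brighter probe set; grey, dimmer one). Insm1 probe sets are both above 0 on all 4 exposed arrays. The Isl1 and Neurod1 pairs part on replicate 1 of BPA10 and of BPA100, and the Isl1 pair also on BPA10 replicate 2.

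Of the remaining homeodomain genes, Nkx2-2, which beta cells need to form and to keep their identity, had its 2 highest signals in BPA10 islets. Its probe set (1421112_at) measured 850 and 744 on the vehicle arrays, 860 and 874 on the BPA10 arrays and 790 and 737 on the BPA100 arrays. The BPA10 arrays lay above all others, although vehicle replicate 1 was close below them. The difference was 0.12 ± 0.13 between BPA10 and vehicle (1.09-fold, 0.888 to 1.34), -0.06 ± 0.13 between BPA100 and vehicle (0.960-fold, 0.782 to 1.18) and -0.18 ± 0.13 between BPA100 and BPA10, with adjusted p = 0.879, 1 and 0.964.

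Nkx6-1, which represses alpha-cell genes in beta cells, differed more between replicates than between groups. Its probe set (1425828_at) measured 930 and 897 on the vehicle arrays, 770 and 1106 on the BPA10 arrays and 1060 and 879 on the BPA100 arrays. The BPA10 pair held both the lowest and the highest value of the 6 arrays. The difference was 0.01 ± 0.19 between BPA10 and vehicle (95% interval 0.754- to 1.35-fold) and 0.08 ± 0.19 between BPA100 and vehicle (0.788- to 1.42-fold).

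Isl1, a LIM-homeodomain factor of all islet endocrine cell types, gave different orders by its 2 probe sets. The brighter one (1450723_at) measured 2257 and 2185 on the vehicle arrays, 2397 and 2292 on the BPA10 arrays and 2379 and 2610 on the BPA100 arrays. All 4 exposed arrays lay above both vehicle arrays, with differences of 0.08 ± 0.12 for BPA10 (1.06-fold, 0.878 to 1.27) and 0.17 ± 0.12 for BPA100 (1.12-fold, 0.933 to 1.35). The dimmer one (1422720_at) measured 798 and 765 on the vehicle arrays, 586 and 705 on the BPA10 arrays and 692 and 885 on the BPA100 arrays. Here both BPA10 arrays lay below both vehicle arrays, by -0.28 ± 0.16 (0.823-fold, 0.637 to 1.06, adjusted p = 0.783), and BPA100 differed by 0.00 ± 0.16. Its lowest value was on BPA10 replicate 1.

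Pax6, a paired-box and homeodomain factor that activates glucagon and other hormone genes, was measured by 5 probe sets. The brightest (1419271_at) measured 2226 and 2954 on the vehicle arrays, 2093 and 2687 on the BPA10 arrays and 2324 and 2710 on the BPA100 arrays. The replicate gaps were 0.22 to 0.41 on the log2 scale, and the groups overlapped, with differences of -0.11 ± 0.18 for BPA10 (0.695- to 1.23-fold) and -0.03 ± 0.18 for BPA100 (0.735- to 1.30-fold). The second (1452526_a_at) measured 500 and 541 on the vehicle arrays, 453 and 491 on the BPA10 arrays and 506 on each BPA100 array. Its BPA10 values were below both vehicle values, by -0.14 ± 0.13 (adjusted p = 0.868), and its BPA100 difference was -0.04 ± 0.13. The other 3 Pax6 probe sets were dim, with signals of 20 to 106, and differed by between -0.09 and 0.34 in BPA10 and between -0.22 and 0.18 in BPA100 islets, with SEs of 0.23 to 0.39. Over the 6 arrays the brightest probe set correlated at 0.76 and 0.83 with 1452526_a_at and 1425960_s_at, and at -0.63 and -0.93 with 1456342_at and 1437816_at, the pair with signals of 51 or less.

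Neurod1, the E-box binding factor that acts on insulin transcription, varied least of the 8 genes by the standard deviation over the 6 arrays, which was 0.07 on the log2 scale for the brighter and 0.08 for the dimmer probe set. The brighter (1426413_at) measured 3616 and 3724 on the vehicle arrays, 4158 and 3863 on the BPA10 arrays and 3944 and 3790 on the BPA100 arrays. All 4 exposed arrays were above both vehicle arrays, but the differences were 0.13 ± 0.11 for BPA10 (1.09-fold, 0.913 to 1.31) and 0.08 ± 0.11 for BPA100 (1.05-fold, 0.881 to 1.26), and that for BPA10 was -0.02 after quantile normalization. The dimmer probe set (1426412_at) measured 2134 and 2102 on the vehicle arrays, 1968 and 2150 on the BPA10 arrays and 1971 and 2257 on the BPA100 arrays. It overlapped in all groups, with differences of -0.04 ± 0.12 and -0.01 ± 0.12, and correlated at -0.67 with the brighter one over the 6 arrays.

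Foxa2, a forkhead factor that opens chromatin at endoderm genes and acts on Pdx1, overlapped between vehicle and both doses. Its probe set (1422833_at) measured 858 and 1086 on the vehicle arrays, 890 and 954 on the BPA10 arrays and 1072 and 986 on the BPA100 arrays. The vehicle arrays held both its lowest and its highest value. The difference was -0.07 ± 0.15 between BPA10 and vehicle (0.955-fold, 0.756 to 1.21), 0.09 ± 0.15 between BPA100 and vehicle (1.06-fold, 0.843 to 1.35) and 0.16 ± 0.15 between BPA100 and BPA10 (adjusted p = 0.971).

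**Figure D3:**
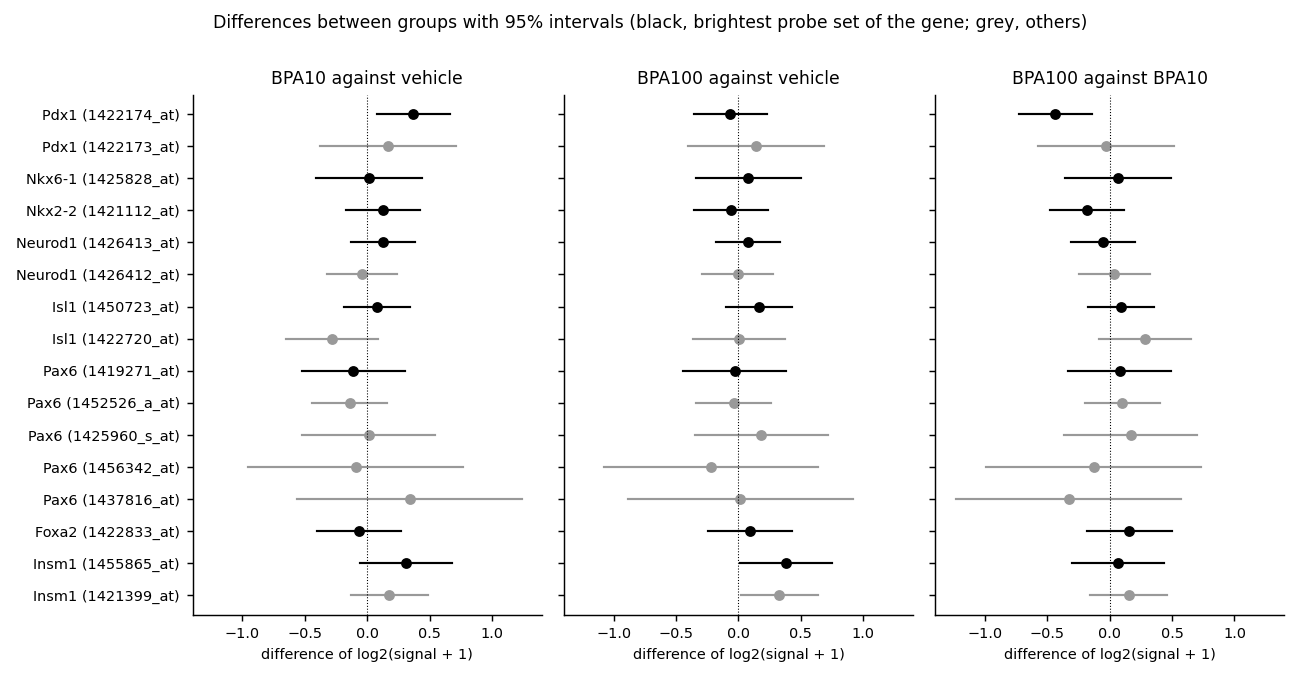
Differences of log2(signal + 1) with 95% intervals for all 16 probe sets in BPA10 against vehicle, BPA100 against vehicle and BPA100 against BPA10 (black, brightest probe set of a gene; grey, others; dotted line, no difference). Intervals that leave out 0 belong to Pdx1 1422174_at, with BPA10 against vehicle and BPA100 against BPA10, and to both Insm1 probe sets, with BPA100 against vehicle.

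Over the whole list, 0 of 16 probe sets passed in any comparison by limma. Between BPA10 and vehicle 1 of 16 had an unadjusted p under 0.05 and was higher, where 7.08% of all tested probe sets did (3.12% higher, 3.96% lower) and 0% passed after adjustment. Between BPA100 and vehicle it was 2 of 16, both of Insm1 and higher, against 3.98% of all (2.11% higher, 1.87% lower). Between BPA100 and BPA10 it was 1 of 16, lower, against 4.75% (2.44% higher, 2.31% lower), and between both doses and vehicle 1 of 16, higher, against 5.69% (2.7% higher, 2.99% lower). BPA10 arrays did not overlap vehicle arrays for 7 of 16 probe sets (5 above, 2 below), where 36% of all tested probe sets did not overlap (17.5% above, 18.6% below). For BPA100 against vehicle it was 4 of 16, all above, against 31.9% of all (16.1% above, 15.8% below), for BPA100 against BPA10 4 of 16 (2 above, 2 below), against 30.7% (15.7% above, 15% below), and for both doses against vehicle 3 of 16, all above, against 14.5% (7.17% above, 7.33% below). In a moderated F test over the 3 groups Pdx1 1422174_at had the smallest p of the 16 (adjusted p = 0.923), under 0.05 before adjustment as for 5.23% of all tested probe sets.

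By brightest probe set, 6 of 8 genes were higher and 2 lower in BPA10 than in vehicle islets, with a median difference of 0.10, where the median over all 13193 genes was 0.02. After quantile normalization it was 5 and 3 with a median of 0.01, so the list's median in BPA10 islets depended on the scaling. Between BPA100 and vehicle 5 genes were higher and 3 lower (median 0.08, all genes -0.00), and between BPA100 and BPA10 also 5 and 3 (median 0.06 but mean -0.03, all genes -0.02). With both doses against vehicle 7 were higher and 1 lower (median 0.07, all genes 0.01), where 51.5% of all genes were higher. After quantile normalization that count was 6 and 2. These comparisons share arrays and are not independent of each other. Over all 16 probe sets the differences lay between -0.28 and 0.37 in BPA10 and between -0.22 and 0.38 in BPA100 islets, with a median SE of 0.15. The 95% intervals of the 8 brightest probe sets stayed within 0.695- and 1.68-fold in both comparisons with vehicle.

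Markers of other cell types in the preparations ranged more widely over the arrays. Acinar cells are the enzyme-secreting cells of the exocrine pancreas that adhere to isolated islets. All 23 tested markers of 30 listed were higher in BPA10 than in vehicle islets and 22 of 23 in BPA100 islets (medians 0.99 and 0.50). By limma 0 passed, and 19 and 2 were higher at an unadjusted p under 0.05, against 3.12% and 2.11% of all tested probe sets. No acinar marker was at a signal of 0. Their summed signal was 141856 and 74965 on the vehicle arrays, 198331 and 179880 on the BPA10 arrays and 185036 and 104201 on the BPA100 arrays, and the brightest were Prss2 and Cela3b, a trypsinogen and an elastase. Relative to the vehicle mean the acinar median stood at 0.58 and -0.58 on the vehicle arrays, 1.05 and 0.87 on the BPA10 arrays and 0.94 and 0.02 on the BPA100 arrays. The median of the 8 transcription factor genes stood at 0.00 on both vehicle arrays, 0.11 on both BPA10 arrays and 0.10 and 0.04 on the BPA100 arrays. The part of acinar RNA in the 8 genes' values was not tested beyond the covariate fit. As both BPA10 arrays stood above both vehicle arrays in acinar level, that fit cannot fully tell it apart from BPA10 exposure.

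Among the other lists, the median of 17 stellate-cell and fibroblast markers, led in brightness by Col3a1 and Sparc, was 0.84 on BPA10 replicate 1 and -0.68 on BPA100 replicate 2. The medians of 13 macrophage markers, led by Ctss and Lyz1, lay between -0.41 and 0.41, those of 9 duct markers, led by Epcam and Krt8, between -0.44 and 0.15, and those of 11 endothelial markers, led by Plvap and Emcn, between -0.09 and 0.06. The dimmer Isl1 probe set had its lowest signal on BPA10 replicate 1, where the stellate list stood highest. So did Nkx6-1, the dimmer Neurod1 probe set and Pax6 1419271_at and 1452526_a_at. The brighter Neurod1 probe set and Pax6 1456342_at and 1437816_at had their highest signals there. Markers of these 4 lists were at a signal of 0 on no array, and their part in the transcription factor values was not tested.

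**Figure D4:**
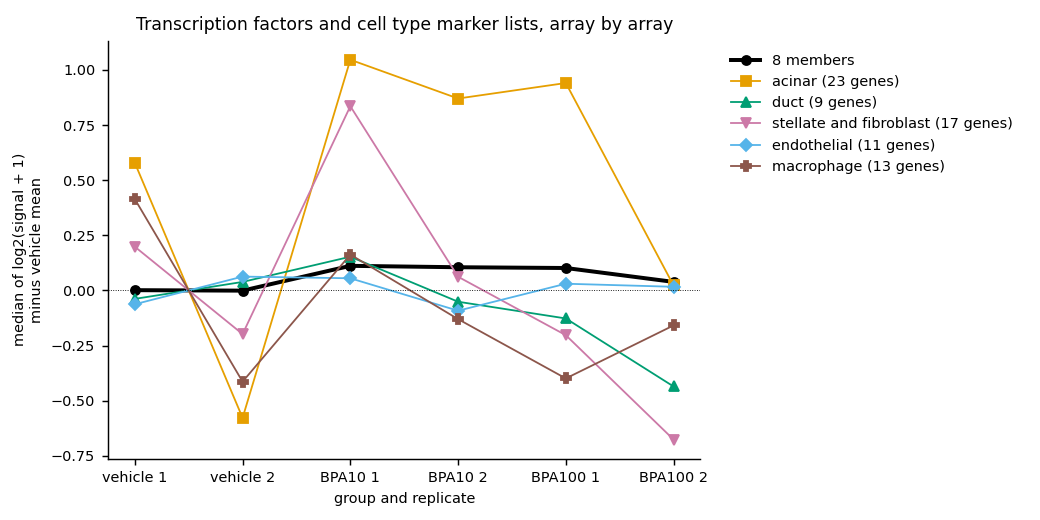
Median level on each array, as log2(signal + 1) minus the vehicle mean, of the 8 transcription factor genes (black) and of 5 lists of markers of other cell types. The median of the 8 genes stays between 0.00 and 0.11, while that of the acinar list ranges from -0.58 to 1.05. Single genes among the 8, not drawn here, ranged from -0.29 (BPA10 replicate 1) to 0.50 (BPA100 replicate 1).

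The wider set of islet and pancreatic transcription factors held no call either. Of 50 listed genes, 42 have a probe set of their own and 36 passed the filter. In BPA10 islets 23 were higher and 13 lower than in vehicle islets (median 0.09), 0 passed by limma, and 2 higher and 1 lower had an unadjusted p under 0.05, close to the share of all tested probe sets (7.08%). Nr5a2, an orphan nuclear receptor of acinar cells, measured 192 and 114 in BPA10 islets, against 88 and 53 in vehicle islets (1.10 ± 0.38, adjusted p = 0.660), and its other tested probe sets differed by 0.79 and -0.04. Meis2, a homeodomain partner of other homeodomain proteins, measured 1217 and 1313 against 971 and 1098 (0.29 ± 0.13, adjusted p = 0.702), but its other probe sets differed by -0.11, -0.09 and -0.93. Pou3f4, a factor of alpha cells, measured 22 and 18 against 62 and 32 (-1.13 ± 0.40, adjusted p = 0.669), and its other probe set differed by -0.66. Both BPA10 signals of Pou3f4 were below 23.3, the signal at the filter's threshold, so it passed the filter through its other arrays.

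In BPA100 islets 17 of the 36 were higher and 19 lower than in vehicle islets (median -0.02), 0 passed by limma, and 1 higher and 2 lower had an unadjusted p under 0.05, against 3.98% of all tested probe sets. Meis2 measured 1436 and 1352 on the BPA100 arrays, against 971 and 1098 on the vehicle arrays (0.43 ± 0.13, adjusted p = 1), with its other probe sets at 0.04, 0.26 and 0.57. Foxa3, a forkhead relative of Foxa2, measured 190 and 183 against 270 and 229 (-0.41 ± 0.16, adjusted p = 1). Scrt1, a zinc-finger repressor, measured 59 and 44 against 88 and 71 (-0.62 ± 0.26, adjusted p = 1). With both doses against vehicle, Meis2 differed by 0.36 ± 0.11 (adjusted p = 0.806), all 4 exposed arrays being above both vehicle arrays. Rfx3, a relative of Rfx6, measured 386 and 383 in BPA10 and 343 and 394 in BPA100 islets, against 292 and 321 in vehicle islets (0.30 ± 0.13 for both doses, adjusted p = 0.869), but its other probe set differed by 0.05 in BPA10 and -0.03 in BPA100 islets. Between BPA100 and BPA10, the genes with the smallest p were Nr5a2, Foxa3 and Scrt1 on the lower side (-1.37, -0.52 and -0.64) and Prox1 and Neurog3 on the higher (0.51 and 0.62), each with adjusted p = 0.964. Other tested probe sets differed by -0.62 and 0.22 for Nr5a2 and by 0.13 for Prox1.

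Among further factors known for a place beside the 9 genes, Glis3, Hnf4a, Foxo1 and Neurog3 were tested and did not pass. Glis3, a zinc-finger protein that activates insulin transcription, measured 379 and 399 on the vehicle arrays, 433 and 434 on the BPA10 arrays and 460 and 454 on the BPA100 arrays, so that all 4 exposed arrays were above both vehicle arrays (0.16 ± 0.13 for BPA10 and 0.23 ± 0.13 for BPA100, adjusted p = 0.846 and 1). Hnf4a, a nuclear receptor of liver and islet, differed by 0.16 ± 0.15 and -0.05 ± 0.15, and its other 3 probe sets by -0.25 to 0.02 in BPA10 islets and -0.42 to -0.01 in BPA100 islets. Foxo1, a forkhead factor that insulin signalling holds out of the nucleus, differed by 0.13 ± 0.16 and 0.10 ± 0.16, with its other tested probe sets at -0.25 and -0.09 in BPA10 and at -0.24 and 0.19 in BPA100 islets. Neurog3, the factor that commits cells to the endocrine fate in the embryo, differed by -0.24 ± 0.27 and 0.37 ± 0.27. Between BPA100 and BPA10, Glis3, Hnf4a and Foxo1 differed by 0.08, -0.20 and -0.04, and between both doses and vehicle Glis3, Hnf4a, Foxo1 and Neurog3 differed by 0.19, 0.05, 0.11 and 0.06. Pax4 was below the filter, with signals of 2 to 15.

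**Figure D5:**
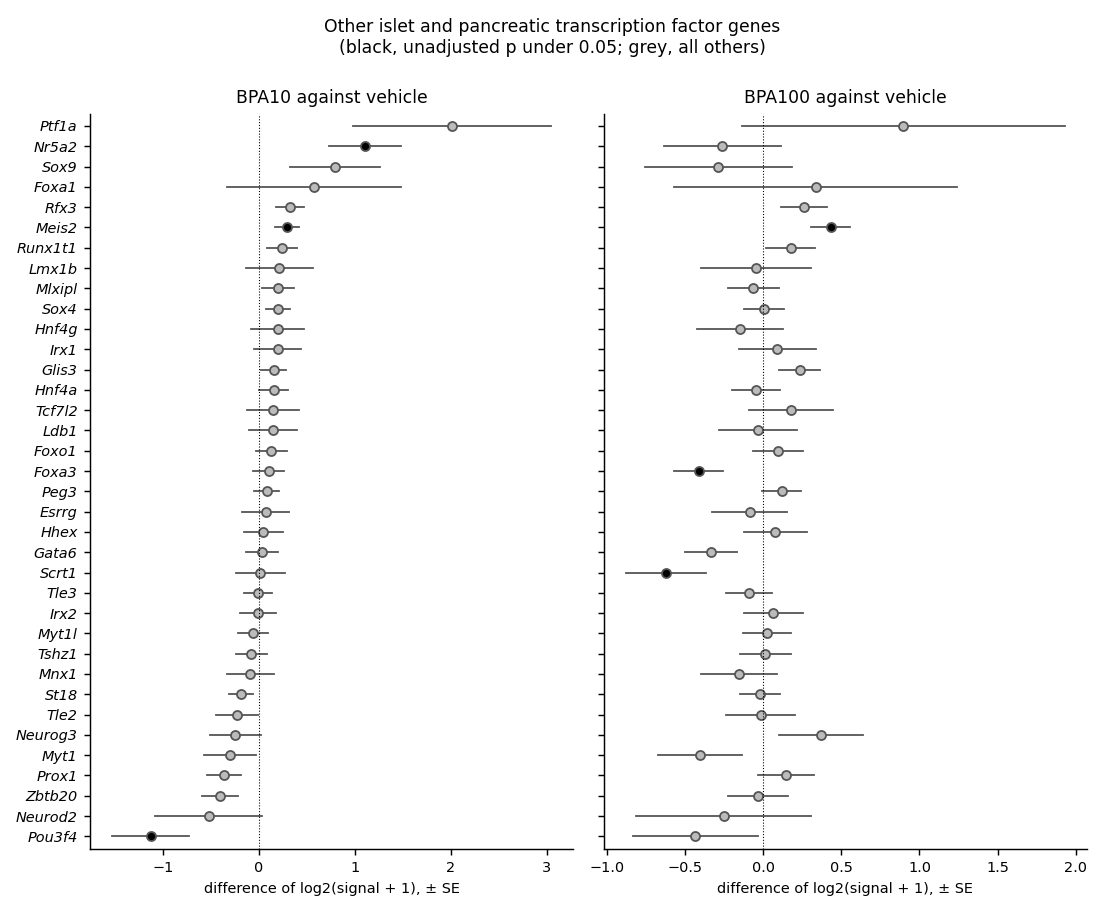
Differences of log2(signal + 1) ± SE from vehicle in BPA10 islets (left) and BPA100 islets (right) for the brightest probe set of 36 other islet and pancreatic transcription factor genes, ordered by the BPA10 value; black points have an unadjusted p under 0.05. In BPA10 islets 23 genes lie to the right of 0 and 13 to the left.

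Of 28 tested genes that these factors are known to regulate, 15 were higher and 13 lower than vehicle at each dose (median 0.02 but mean -0.04 in BPA10 islets, and median 0.05 in BPA100 islets), and 0 passed by limma, with 6 higher and 2 lower at an unadjusted p under 0.05 in BPA10 islets (3.12% and 3.96% of all tested probe sets) and 1 and 1 in BPA100 islets (2.11% and 1.87%). Ins2, which encodes insulin and is bound by Pdx1 and Neurod1, measured 3546 and 3552 on the vehicle arrays, 4873 and 4797 on the BPA10 arrays and 4139 and 2680 on the BPA100 arrays, by a probe set whose suffix marks probes that can bind related sequences. Ins2 differed by 0.45 ± 0.19 for BPA10 (adjusted p = 0.688) and by -0.09 ± 0.19 for BPA100, and neither passed. Its 2 BPA10 values exceeded the other 4, as did those of the brighter Pdx1 probe set. The alpha-cell hormone gene Gcg had this order too, at 12171 and 11487 in BPA10 islets and at most 11285 elsewhere. A link between the Pdx1 and Ins2 values was not tested. G6pc2, an islet glucose-6-phosphatase, measured 9312 and 9224 on the BPA10 arrays and 9949 and 8685 on the BPA100 arrays, all above the 7731 and 7080 on the vehicle arrays (0.33 ± 0.12 at each dose, adjusted p = 0.680 for BPA10 and 1 for BPA100). The glucose transporter gene Slc2a2 differed by 0.17 and 0.12, the granule zinc transporter gene Slc30a8 by 0.22 and 0.19, and the alpha- and delta-cell hormone genes Gcg and Sst by 0.38 and 0.17 and by 0.25 and 0.25. The targets named here were all higher in BPA10 islets, whereas 13 of the 28 were lower. Over the 28, BPA10 differences lay between -1.09 and 0.45, so the largest was on the lower side. Quantile normalization turned the BPA10 differences of Slc2a2, G6pc2, Gcg and Sst to -0.07, -0.06, -0.02 and -0.13, and that of Gcg in BPA100 islets to -0.08.

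Among themselves the 8 genes did not share a pattern over the 6 arrays. Of the 28 pairs of brightest probe sets, 14 had a correlation above 0, with a median of 0.02 and a range of -0.72 to 0.67. Among 12508 other named genes, those most like each gene by Pearson correlation over the 6 arrays were Tada2a and Ppil1 for Pdx1 (0.975 and 0.973), Camkk2 and Svil for Nkx6-1 (0.995 and 0.993), Tube1 and Tmem184b for Nkx2-2 (0.988 and 0.986), and Rpl13a and Pi4k2a for Neurod1 (0.996 and 0.995). For Isl1 they were Arsk and Neil1 (0.999 and 0.990), for Pax6 Nedd4l and Nap1l4 (0.993 and 0.992), for Foxa2 Cnpy3 and Sarm1 (0.983 and 0.962), and for Insm1 Mmut and Pxylp1 (0.999 and 0.989). Between 44 and 159 genes correlated above 0.9 with each of the 8, and the arrays of a group share their exposure, so these values only describe 6 points. Tada2a, for example, measured 162 and 172 on the vehicle arrays, 186 and 188 on the BPA10 arrays and 164 and 163 on the BPA100 arrays, with the BPA10 pair highest as in the brighter Pdx1 probe set.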

How the data were processed

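RNA of 6 islet samples (150 ng of total RNA each) was amplified in 2 rounds, labelled with biotin and hybridised to Affymetrix arrays, per the labels' protocols. Each deposited value is a probe set's intensity on 1 array, from MAS5 per the submitters' processing notes; its version is not given in the sources used here. They are whole numbers whose mean, without the lowest and highest 2% of values, is about 150 on every array, so a level is relative to all other signals of its array. Of 45101 probe sets, 64 controls were left out. The annotation gives 34945 probe sets a single gene, 932 more than one and 9160 no gene; symbols were updated through RefSeq.

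Values were taken as log2(signal + 1), a pseudocount of 1 that understates changes of dim probe sets. limma 3.58.1 in R 4.3.3 was fitted to all 6 arrays with 3 group means and an intensity trend (3 residual and 5.4 prior degrees of freedom), 2-sided. The number of arrays limits the precision; exact permutation of 2 arrays against 2 cannot give p below 0.333. The procedure was tested on simulated data.

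The members and gene lists were chosen with earlier results of these data known. Named genes are all members, set factors and targets, up to 3 other factors in each direction with an unadjusted p under 0.05 per comparison, and the 2 genes most correlated with each member; Zbtb20 was added after its values were seen. Lists use the brightest tested probe set of a gene. Protein sequences and the Insm1 promoter were not used here. Alternatives covered normalization, pseudocount, filter, trend, the arrays fitted, an acinar covariate and the replicate block.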

Additional observations from a re-analysis of the deposited data

How the results depend on the processing

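No member passed under any alternative (smallest adjusted p = 0.388). Of 576 values of 36 reported member differences 530 kept their direction, as did 618 of 639 values of 40 differences of other named genes. Not every probe set and comparison is among the 36. These counts overstate stability, because the filter, the trend, the replicate block and fits of only the groups compared leave a difference itself unchanged. So does leaving out an array of a group not compared. Over all probe sets, counts of 0 became 1 (only the groups compared) for BPA10, 6 (median centring), 4 (only the groups compared) and 2 (acinar covariate) for BPA100, and 1 (median centring) for both doses; with any 1 array left out they were 0 to 9 for BPA10, 0 to 5 for BPA100, 0 to 1 for BPA100 against BPA10 and 0 to 7 for both doses. With the replicate number as a block, 0, 7, 0 and 1 probe sets passed in the 4 comparisons, none of them a member. The labels do not say that numbers pair arrays, and same-numbered deviations correlated at 0.19, 0.20 and 0.08.

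The median over members, 0.10, 0.08, 0.06 and 0.07 in the same order, was 0.01, 0.04 and 0.03 (BPA10, BPA100, both doses) after quantile normalization, 0.12, 0.11 and 0.10 after median centring, 0.15, 0.05 and 0.04 (BPA10, BPA100, BPA100 against BPA10) with only arrays of 1 mouse, 0.10, 0.01 and 0.10 (BPA100, BPA100 against BPA10, both doses) with the acinar covariate, and 0.03, 0.06, 0.03 and 0.04 with all probe sets of a gene averaged. With 1 array left out it lay between 0.10 and 0.11, 0.04 and 0.12, -0.06 and 0.06, and 0.05 and 0.13. The fit with only arrays of 1 mouse leaves 1 BPA10 and 1 vehicle array.

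Signs turned, among values that did not pass, as follows. Quantile normalization gave Neurod1 1426413_at -0.02 (BPA10) and 0.02 (BPA100 against BPA10), Isl1 1422720_at -0.01 (BPA100), Slc2a2 -0.07, G6pc2 -0.06, Sst -0.13 and Gcg -0.02 (BPA10), and Gcg -0.08 (BPA100). Median centring gave Pax6 1419271_at 0.01 and Neurod1 1426412_at 0.03 (BPA100). Only arrays of 1 mouse gave Nkx6-1 -0.22, Neurog3 0.13 and Slc2a2 0.00 (BPA10), and Nkx2-2 0.04, Pdx1 1422173_at -0.05, Foxa2 -0.08 and Neurod1 1426412_at 0.00 (BPA100), and Hnf4a -0.05 (both doses). The acinar covariate gave Pax6 1419271_at 0.24, Nkx2-2 -0.02, Foxa2 0.07, Nkx6-1 -0.09, Neurod1 1426412_at 0.05 and Insm1 1455865_at -0.03 (BPA10), Pax6 1419271_at 0.13 and Neurod1 1426412_at 0.03 (BPA100), and Pax6 1419271_at -0.12 and Foxo1 0.03 (BPA100 against BPA10). With 1 array left out, BPA10 values ranged over -0.32 to 0.09 (Pax6 1419271_at), -0.02 to 0.36 (Pdx1 1422173_at), -0.24 to 0.10 (Foxa2), -0.25 to 0.28 (Nkx6-1), -0.11 to 0.02 (Neurod1 1426412_at), -0.03 to 0.29 (Foxo1) and -0.51 to 0.03 (Neurog3). BPA100 values ranged over -0.24 to 0.17 (Pax6 1419271_at), -0.16 to 0.04 (Nkx2-2), -0.07 to 0.35 (Pdx1 1422173_at), -0.15 to 0.02 (Pdx1 1422174_at), -0.17 to 0.18 (Isl1 1422720_at), -0.08 to 0.26 (Foxa2), -0.06 to 0.21 (Nkx6-1), -0.10 to 0.09 (Neurod1 1426412_at), -0.10 to 0.02 (Pax6 1452526_a_at), -0.16 to 0.07 (Hnf4a), -0.06 to 0.25 (Foxo1) and -0.41 to 0.22 (Ins2), and BPA100 against BPA10 values over -0.10 to 0.26 (Pax6 1419271_at), -0.20 to 0.33 (Nkx6-1), -0.10 to 0.00 (Neurod1 1426413_at), -0.13 to 0.06 (Foxo1) and -0.06 to 0.19 (Insm1 1455865_at). Values for both doses ranged over -0.06 to 0.17 (Hnf4a), -0.05 to 0.27 (Foxo1) and -0.07 to 0.20 (Neurog3). The cause was not tested.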

Other observations

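Zbtb20, a zinc-finger repressor with a role in glucose metabolism of mouse beta cells, has 9 tested probe sets and was singled out after its values were seen. The shares of all tested probe sets beside its counts are therefore a description and not a test. In BPA10 islets 8 of the 9 were lower than in vehicle islets, by up to -0.89, and both BPA10 arrays lay below both vehicle arrays for 7, where 18.6% of all tested probe sets did so. Its brightest probe set measured 451 and 624 in BPA10 islets, against 668 and 741 in vehicle islets (-0.41 ± 0.19, SE), and the probe set with the smallest p 292 and 363, against 444 and 523 (-0.56 ± 0.17). Of the 9, 4 had an unadjusted p under 0.05, against 7.08% of all tested probe sets, and none passed over all probe sets by limma (smallest adjusted p = 0.617). In BPA100 islets 5 were lower and 4 higher, between -0.38 and 0.40. Both BPA100 arrays lay above both vehicle arrays for 2, against 16.1% of all tested probe sets, and below them for 0, against 15.8%. Probe sets of a gene read the same RNA samples and are not independent.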
